A study of Homo sapiens with 34 samples.

Results

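The genes described here encode the enzymes that remove superoxide and peroxides from human cells: the superoxide dismutases SOD1 and SOD2, the catalase CAT, the glutathione peroxidases GPX1, GPX4 and GPX8, and the peroxiredoxins PRDX1, PRDX2, PRDX5 and PRDX6. These 10 genes, of 19970 protein-coding genes on chromosomes 1 to 22 and X, were chosen by name for that function, with earlier results of these data known. For each, the called chromatin regions that touched the gene or the 1 kb on either side of it were collected from 20 lists. That stretch, from 1 kb before to 1 kb after the gene, is called the gene window, and a library was counted as occupying a gene if at least 1 bp of a region fell in this window. The covered percent is the share of the window's bases that lay inside called regions.

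The cells were U2OS, an osteosarcoma line of mesenchymal origin, and all of them had been synchronized by a double thymidine block and released for 3 h into early S phase. CUT&RUN, in which an antibody tethers a nuclease that releases the DNA fragments around its target, used 500000 cells for each reaction after fixation for 1 min with 0.1% formaldehyde. One antibody recognised SMARCA1, the motor subunit of ISWI chromatin remodellers, another OGG1, the glycosylase that excises 8-oxoguanine from oxidized DNA, and the last Orc6, a subunit of the origin recognition complex. The groups received an siRNA for 72 h, against Orc6 (siOrc6) or the luciferase control siGl3, and then either 5 mM H2O2 for 30 min or no treatment (NT). SMARCA1 and OGG1 were each profiled in siOrc6 H2O2, siOrc6 NT, siGl3 H2O2 and siGl3 NT cells, and Orc6 in siGl3 H2O2 and siGl3 NT cells, so that 10 groups held 2 libraries each. The other 14 of the 34 samples were not analysed here. The labels give the replicate number of these libraries as a batch and do not say whether replicates were separate cultures, so p-values measure the spread between these samples, which may be technical.

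Superoxide dismutases turn superoxide into oxygen and hydrogen peroxide, SOD1 mainly in the cytosol and SOD2 in the mitochondrial matrix. Hydrogen peroxide is then split by catalase in peroxisomes, or reduced by glutathione peroxidases and peroxiredoxins with electrons from glutathione or thioredoxin. Many genes of these systems are targets of the transcription factor NRF2, which is released from its inhibitor KEAP1 when cysteines of KEAP1 are oxidized.

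The 250 bases before a listed start are shown for 4 of these genes. The stretches were taken from RefSeq promoters of GRCh38.p14, run 5′ to 3′ on the gene's strand, and carry in capitals each CCAAT, the core of the CCAAT box, read on either strand. GPX4 and GPX8 are shown because SMARCA1 regions lay at opposite ends of the siRNA contrast there, CAT for the high rank of its OGG1 maximum near the start, and PRDX2 because it had the fewest occupied libraries.
GPX4, chr19:1103744-1103993, plus strand: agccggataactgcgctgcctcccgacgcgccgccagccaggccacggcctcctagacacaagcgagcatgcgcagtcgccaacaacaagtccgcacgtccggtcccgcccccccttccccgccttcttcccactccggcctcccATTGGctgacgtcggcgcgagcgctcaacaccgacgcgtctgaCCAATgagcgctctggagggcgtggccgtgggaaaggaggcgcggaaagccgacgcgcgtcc
GPX8, chr5:55159921-55160170, plus strand: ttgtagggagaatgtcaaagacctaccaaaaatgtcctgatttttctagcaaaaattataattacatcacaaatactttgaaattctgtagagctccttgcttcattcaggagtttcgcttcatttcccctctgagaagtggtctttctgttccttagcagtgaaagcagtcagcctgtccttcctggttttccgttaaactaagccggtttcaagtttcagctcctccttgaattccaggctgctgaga
CAT, chr11:34438684-34438933, plus strand: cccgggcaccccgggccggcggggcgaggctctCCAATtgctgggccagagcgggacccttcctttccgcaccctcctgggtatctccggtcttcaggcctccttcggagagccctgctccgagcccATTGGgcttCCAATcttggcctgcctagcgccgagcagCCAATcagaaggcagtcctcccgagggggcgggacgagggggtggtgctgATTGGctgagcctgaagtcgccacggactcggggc
PRDX2, chr19:12801801-12802050, minus strand: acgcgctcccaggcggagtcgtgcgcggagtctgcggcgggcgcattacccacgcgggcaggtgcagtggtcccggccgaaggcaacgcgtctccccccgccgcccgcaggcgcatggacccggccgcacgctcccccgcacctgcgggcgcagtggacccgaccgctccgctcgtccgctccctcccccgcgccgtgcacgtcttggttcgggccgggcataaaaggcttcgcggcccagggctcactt
The letters CCAAT stood 5 times in the stretch of CAT, 2 times in that of GPX4 and 0 times in those of GPX8 and PRDX2. Of 22155 promoters of protein-coding genes, 32.7% held these letters in the same 250 bases and 3.34% held them 3 or more times, and they were present in 5 of 13 listed promoters of the enzyme genes. The 250 bases of GPX8 were 41.2% G and C, those of GPX4 69.6%, those of CAT 68.8% and those of PRDX2 75.2%. The letters TGACNNNGC, the core of the antioxidant response element bound by NRF2, were searched on both strands in the whole 300 bases (250 before and 50 after the start). They were found in 0 of the 13 promoters of the enzyme genes, against 13.8% of the 22155 promoters, which says only that these letters are not in these windows. The table held promoters for 7 of the 10 genes: SOD1, PRDX1 and PRDX6 had none there.

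Regions were called at the enzyme genes in most libraries. Of 200 combinations of gene and library, 174 were occupied (87.0%), while the mean share of all protein-coding genes occupied in a library was 60.9%. This was not shared by the rest of the same families: 9 further members (SOD3, GPX2, GPX3, GPX5, GPX6, GPX7, PRDX3, PRDX4 and CCS) were occupied in 73 of 180 combinations (40.6%). Of these, SOD3 and GPX5 were occupied in 0 lists. The share was 82.5% for genes of the thioredoxin system, 78.1% for the glutathione system and 85.0% for the NRF2 axis. By antibody and treatment, the occupied combinations numbered 35 of 40 for SMARCA1 with H2O2 and 26 of 40 for SMARCA1 without, 40 of 40 for OGG1 with H2O2 and 36 of 40 for OGG1 without, and 19 of 20 for Orc6 with H2O2 and 18 of 20 for Orc6 without. GPX1 was the 1 gene occupied in all 20 lists. SOD1, SOD2, PRDX1, PRDX5 and PRDX6 were occupied in 19, each lacking a region in SMARCA1 siGl3 NT replicate 1, the shortest list of all. CAT was occupied in 18 lists, GPX4 in 16, GPX8 in 14 and PRDX2 in 11.

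The lists themselves differed in length, which bears on every count of occupied genes. They held 35381 to 132408 regions with H2O2 and 6992 to 63692 without, which together covered 78.3 to 825 Mb with H2O2 and 31.8 to 289.6 Mb without. The share of all protein-coding genes occupied ran between 57.9% and 85.8% with H2O2 and between 13.5% and 66.5% without. How the deposited signal was normalized, and against which control, is not stated in the sources used here. Read depth is therefore unknown, and signal served only to rank the regions of a list. OGG1 siOrc6 NT replicate 2 stood apart from its replicate at several of the genes. In replicate 2 against replicate 1 its covered percent was 100 and 0 at GPX8, 0 and 61.3 at PRDX2, 39.2 and 98.3 at GPX4, and 45.5 and 100 at PRDX5. CUT&RUN regions do not measure expression, so they cannot check the cell type, and the occupied shares of marker genes are a description only. Of 8 mesenchymal and bone genes, 82.5% of gene and library combinations were occupied, against 26.0% for 10 hepatocyte genes, 43.8% for 8 T cell genes and 78.8% for 8 neuronal genes.

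**Figure D1:**
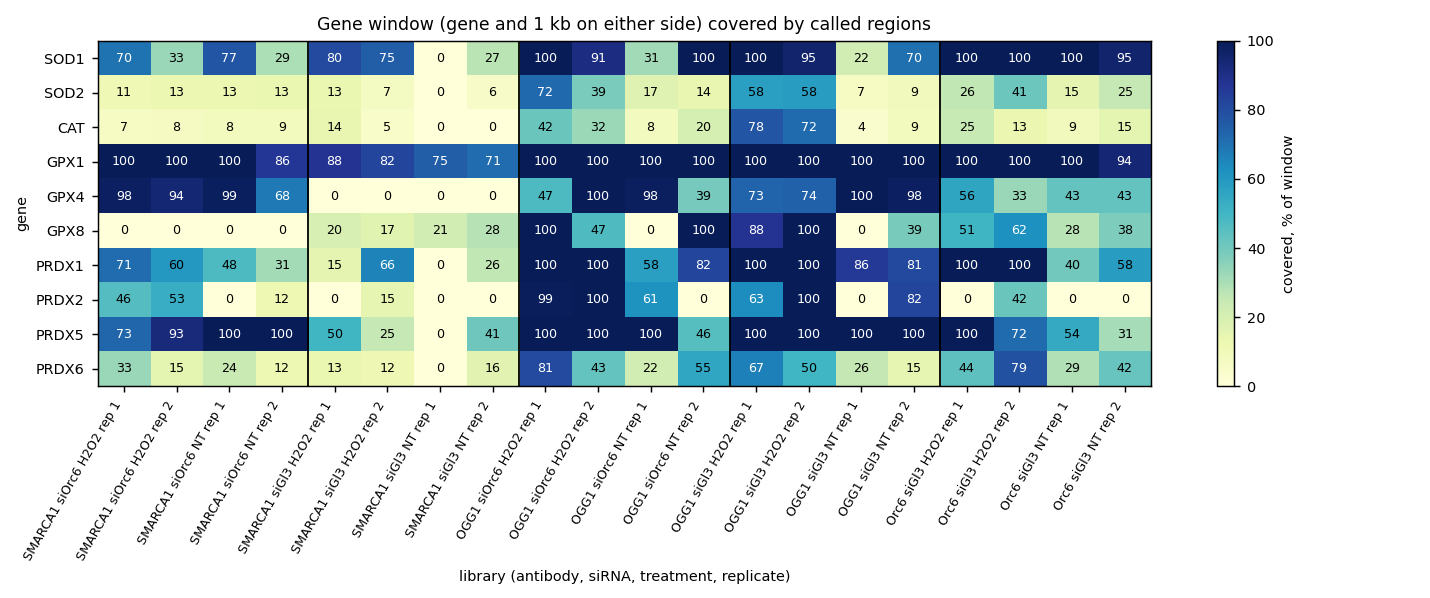
Covered percent of the gene window (colour and number, 0 to 100%) for the 10 enzyme genes (rows) in the 20 libraries (columns, with the vertical lines between antibody and siRNA blocks). GPX1 was covered for at least 71.3% in every library, GPX4 had no region in the 4 SMARCA1 siGl3 libraries, and GPX8 had none in the 4 SMARCA1 siOrc6 libraries.

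Each region's list entry gives the position of its maximum, and at each gene the region of highest maximum signal was used. At GPX8 that maximum lay within 1 kb of a RefSeq start in all 14 lists with a region, at a median of 167 bp. The same held at CAT in 17 of 18 lists (median 172 bp), at GPX1 in 19 of 20 (median 244 bp), at GPX4 in 13 of 16 (median 204.8 bp) and at PRDX5 in 16 of 19 (median 256 bp). At SOD2 the maximum lay within 1 kb of one of the 4 listed starts in 18 of 19 lists. It lay far inside the annotated gene, at a median of 34656 bp from the nearer gene end. The annotation of SOD2 spans 93213 bp and overlaps 29627 bp of WTAP, which encodes a member of the RNA methyltransferase complex. PRDX2 stood apart among the genes with a listed start: the maximum lay outside its window in 8 of the 11 lists with a region and within 1 kb of its start in 3. The maximum also lay outside the window at PRDX1 in 5 of 19 lists, at GPX4 in 3 of 16, at PRDX5 in 3 of 19 and at SOD1 in 2 of 19. At GPX1 and PRDX6 it did so in 1 list each. SOD1, PRDX1 and PRDX6 have no listed start. Their maximum lay within 1 kb of a gene end in 15, 6 and 16 of 19 lists. Other genes shared the windows, and a region there cannot be assigned to one of them: RHOA at GPX1, SBNO2 at GPX4, MMACHC at PRDX1, THSD8 at PRDX2, TRMT112 at PRDX5, ACAT2 and WTAP at SOD2, and CDC20B, which contains the whole of GPX8.

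Within each list, regions were ranked by the authors' total signal (column 4) and maximum signal (column 5), and for each measure the highest percentile among the regions at a gene is given, so that the 2 measures may come from different regions. Lists differ in length, so percentiles from different lists show no change, and they are given with no test. PRDX1 and SOD1 had the highest medians of total signal among the 10 genes, at the 98.1 and 98.0 percentile over the 19 lists in which each had a region. For PRDX1 total signal lay between the 98.1 and 99.8 percentile in the 10 H2O2 lists, and between 72.8 and 93.1 in the 9 NT lists with a region. SOD1 lay between 94.9 and 99.8 in the H2O2 lists and between 62.0 and 98.6 in the NT lists with a region.

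CAT ranked higher by maximum than by total signal. In the 4 OGG1 H2O2 lists its maximum signal lay between the 99.4 and 99.9 percentile, and the regions that held these maxima had total signal between the 76.2 and 96.1 percentile. In the 2 Orc6 H2O2 lists its maximum lay at the 84.3 and 86.0 percentile. The gap was wider at PRDX6 in part of the NT lists: total signal lay at the 0.170, 0.381, 0.473 and 0.652 percentile in 4 of the 9 NT lists with a region, while maximum signal in those lists lay at 82.0, 68.2, 66.9 and 75.3. PRDX2 reached the 99.7 percentile of total signal in SMARCA1 siOrc6 H2O2 replicate 1 and the 1.71 percentile in SMARCA1 siGl3 H2O2 replicate 2. These values came from separate regions. The first was 9334 bp wide with 1522 bp inside the window, and the second was 1012 bp wide and lay wholly inside it. The span is thus not that of 1 site.

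**Figure D2:**
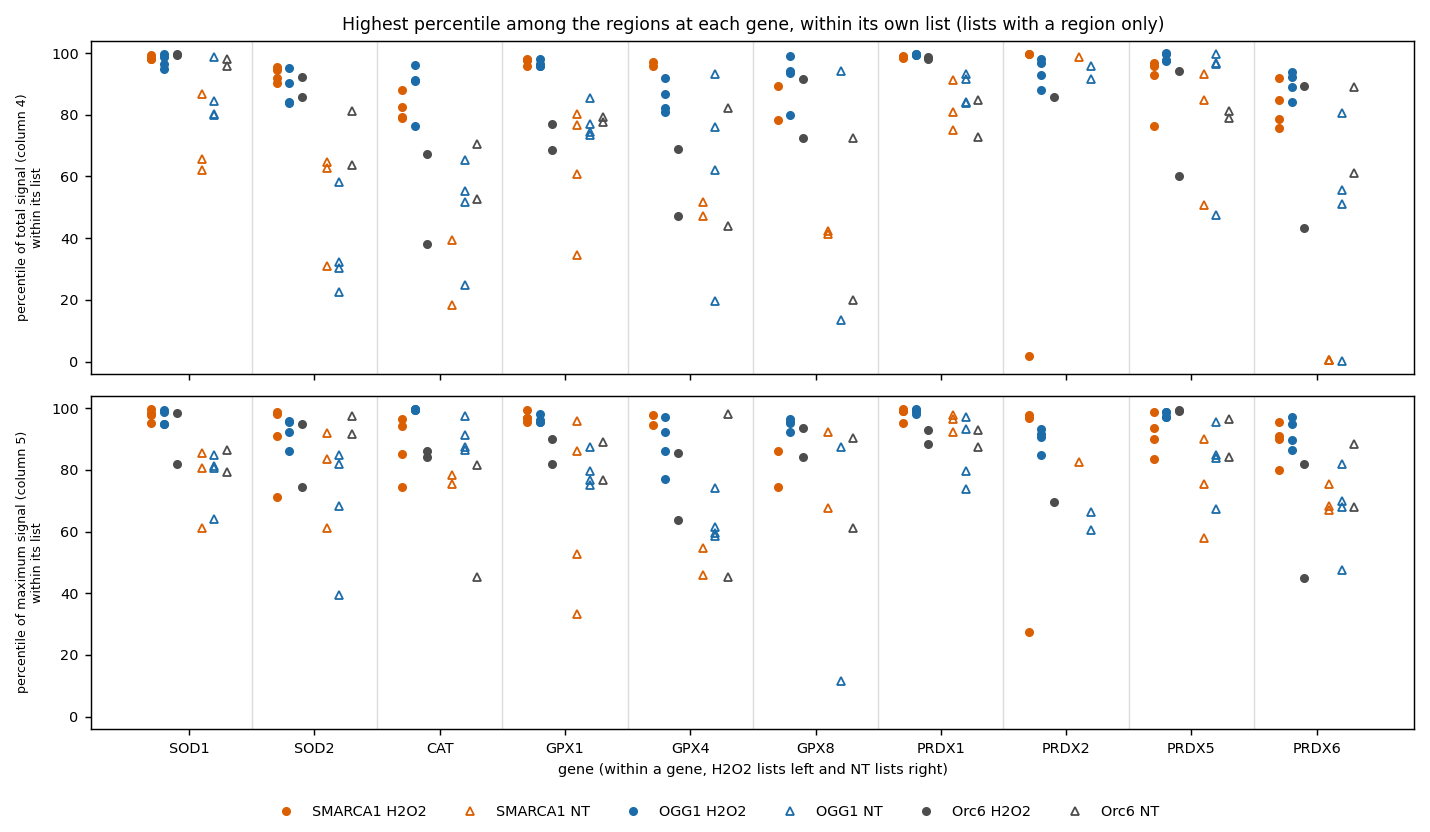
Percentile (0 to 100, within its own list) of the total signal (upper panel) and maximum signal (lower panel), each the highest among the regions at the enzyme gene; each point is 1 library with a region, H2O2 lists as filled circles on the left and NT lists as open triangles on the right, coloured by antibody. PRDX1 had total signal at or above the 98.1 percentile in every H2O2 list, and CAT had maximum signal at or above 99.4 in the 4 OGG1 H2O2 lists.

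When every list was cut to its 6992 regions of highest total signal, the length of the shortest list, the order of the genes changed. SOD1 was then occupied in 19 of 20 lists, PRDX1 in 18, GPX1 in 16 and PRDX5 in 15. SOD2 and PRDX2 were occupied in 8 each, GPX4 in 6, GPX8 and PRDX6 in 5 each, and CAT in 2. CAT, occupied in 18 full lists, thus rarely ranked among the strongest regions by total signal.

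The first question the design poses is whether H2O2 moved the proteins onto or off these genes. Over the 5 antibody and siRNA strata, 5 of the 10 genes had a higher covered percent with H2O2 at an adjusted p below 0.05: SOD2, CAT, PRDX1, PRDX2 and PRDX6. Of all 17939 genes tested, 48.6% were called higher and 0.0111% lower, so the share among the enzyme genes was close to that of all genes. The median difference was 21.5 percentage points over the 10 genes and 15.4 over all genes tested. The test was an exact two-sided permutation of the treatment label within strata, with Benjamini-Hochberg adjustment over all genes tested, and the p-values below are from it.

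The total length of the lists moved with the same contrast, as given above, and the calls were lost under 2 alternatives. The cause was not tested. With lists of equal length, meaning the same number of regions but not of covered bases, 0 of the 10 genes were called. The same held for 0 of all 12718 genes then tested. With the mean covered percent of each library subtracted, 0 of the 10 were called, while over all genes 717 were called higher and 3588 lower. Without SMARCA1 siGl3 NT replicate 1, the shortest list, 4 were called, and without OGG1 siOrc6 NT replicate 2, which stood apart, 6. With the batch as a block, 3 were called (SOD2, PRDX1 and PRDX2), and over all genes 4465 higher and 0 lower.

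SOD1, the cytosolic dismutase, was covered for 69.8% and 33.2% in SMARCA1 siOrc6 H2O2 libraries, against 77.4% and 29.5% in SMARCA1 siOrc6 NT libraries. In SMARCA1 siGl3 cells it was covered for 80.5% and 75.3% with H2O2, against 0% and 27.3% without. OGG1 regions covered 100% and 91.3% of it in siOrc6 H2O2 libraries against 31.3% and 100% in siOrc6 NT libraries, and 100% and 95.5% in siGl3 H2O2 libraries against 21.6% and 70.3% in siGl3 NT libraries. Orc6 regions covered 100% in both H2O2 libraries, against 100% and 95.3% in NT libraries. All siGl3 libraries with H2O2 lay above those without in both antibodies, as at 34.4% of all genes for SMARCA1 and 65.5% for OGG1. The mean difference of 29.3 points, higher in 7 of 10 same-batch pairs, did not pass (adjusted p = 0.0524). It passed without OGG1 siOrc6 NT replicate 2, without SMARCA1 siOrc6 NT replicate 1 and without SMARCA1 siOrc6 H2O2 replicate 2.

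SOD2, the mitochondrial dismutase, was covered far more in OGG1 lists with H2O2. OGG1 regions covered 72.2% and 38.6% of its long window in siOrc6 H2O2 libraries, against 17.0% and 14.2% in siOrc6 NT libraries. In siGl3 cells they covered 57.7% and 58.4% with H2O2, against 6.74% and 9.27% without. SMARCA1 regions covered 11.1% and 12.8% in siOrc6 H2O2 libraries against 12.7% and 13.5% in siOrc6 NT libraries, and 13.3% and 7.25% in siGl3 H2O2 libraries against 0% and 5.77% in siGl3 NT libraries. Orc6 regions covered 25.9% and 41.4% with H2O2, against 15.1% and 25.3% without. The mean difference was 21.9 points (adjusted p = 0.0167), higher in 8 of 10 pairs, with 25.7 points in batch 1 and 18.1 in batch 2.

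CAT, the peroxisomal catalase, behaved much like SOD2, and the 2 had the highest correlation of covered percent among the 45 pairs of these genes (Pearson r = 0.86 over the 20 libraries, which share list length, so that it is a description only). OGG1 regions covered 41.6% and 32.4% of CAT in siOrc6 H2O2 libraries, against 7.83% and 20.4% in siOrc6 NT libraries. In siGl3 cells they covered 77.5% and 71.7% with H2O2, against 4.07% and 8.72% without. SMARCA1 regions covered 6.74% and 7.70% in siOrc6 H2O2 libraries against 8.29% and 8.85% in siOrc6 NT libraries, and 14.0% and 4.88% in siGl3 H2O2 libraries against 0% in both siGl3 NT libraries. Orc6 regions covered 24.7% and 13.1% with H2O2, against 9.12% and 15.5% without. The SMARCA1 siOrc6 stratum ran the other way, with both H2O2 libraries below both NT libraries, as at 8.77% of all genes. The mean difference was 21.1 points (adjusted p = 0.0167), higher in 7 of 10 pairs, with 27.0 points in batch 1 and 15.3 in batch 2. With the batch as a block its adjusted p was 0.0547, within a range of 0.0137 to 1 over its 26 alternatives.

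Among the glutathione peroxidases, no gene passed. GPX1, the abundant cytosolic and mitochondrial enzyme, was covered for 71.3% to 100% in every library and at 100% in all 8 OGG1 libraries. SMARCA1 regions covered 100% of it in both siOrc6 H2O2 libraries against 100% and 86.4% in siOrc6 NT libraries, and 87.8% and 81.9% in siGl3 H2O2 libraries against 75.3% and 71.3% in siGl3 NT libraries. The mean difference of 4.31 points did not pass (adjusted p = 0.0524), except without SMARCA1 siOrc6 NT replicate 1.

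GPX4, which reduces lipid hydroperoxides in membranes and guards against ferroptosis, had OGG1 regions in all 8 libraries. They covered 47.5% and 100% in siOrc6 H2O2 libraries against 98.3% and 39.2% in siOrc6 NT libraries, and 73.2% and 74.2% in siGl3 H2O2 libraries against 100% and 98.0% in siGl3 NT libraries. In the siGl3 stratum both H2O2 libraries thus lay below both NT libraries, as at 1.14% of all genes. Orc6 regions covered 55.6% and 32.9% with H2O2, against 42.8% and 42.9% without. The mean difference over the 5 strata was -1.24 points (adjusted p = 0.885).

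GPX8, a peroxidase of the endoplasmic reticulum, was occupied by OGG1 in 4 of 4 H2O2 libraries and 2 of 4 NT libraries. OGG1 regions covered 100% and 46.9% in siOrc6 H2O2 libraries against 0% and 100% in siOrc6 NT libraries, and 87.5% and 100% in siGl3 H2O2 libraries against 0% and 39.0% in siGl3 NT libraries. Orc6 regions covered 50.7% and 62.5% with H2O2, against 27.6% and 37.6% without. The mean difference of 23.02 points did not pass (adjusted p = 0.133), with 41.7 points in batch 1 and 4.29 in batch 2.

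PRDX1, the main cytosolic peroxiredoxin, was the 1 enzyme gene higher with H2O2 in all 10 pairs. The share of all genes higher in all 10 pairs was not counted. SMARCA1 regions covered 71.2% and 59.8% of it in siOrc6 H2O2 libraries, against 47.5% and 31.2% in siOrc6 NT libraries. In siGl3 cells they covered 15.2% and 65.8% with H2O2, against 0% and 26.1% without. OGG1 regions covered 100% in all 4 H2O2 libraries, against 57.5% and 81.9% in siOrc6 NT libraries and 85.6% and 81.2% in siGl3 NT libraries. Orc6 regions covered 100% in both H2O2 libraries, against 40.1% and 58.3% in NT libraries. The groups overlapped in the SMARCA1 siGl3 stratum alone. Of all genes, 18% had H2O2 above NT libraries in at least 4 of the 5 strata, SOD2 among them. The mean difference was 30.3 points (adjusted p = 0.00801), with 31.1 points in batch 1 and 29.4 in batch 2. With regions of at most 10 kb alone the difference was -4.62 points, and the cause was not tested. The region of highest total signal was 116740 bp wide in OGG1 siGl3 H2O2 replicate 2. In SMARCA1 H2O2 libraries it was 2103 to 9139 bp wide, and the SMARCA1 differences were 26.1 points with siOrc6 and 27.4 with siGl3.

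PRDX2, a cytosolic peroxiredoxin abundant in red cells, was the least occupied of the 10. OGG1 regions covered 98.9% and 100% in siOrc6 H2O2 libraries against 61.3% and 0% in siOrc6 NT libraries, and 63.5% and 100% in siGl3 H2O2 libraries against 0% and 81.9% in siGl3 NT libraries. SMARCA1 regions covered 45.9% and 53.1% in siOrc6 H2O2 libraries against 0% and 12.0% in siOrc6 NT libraries, and 0% and 14.5% in siGl3 H2O2 libraries against 0% in both siGl3 NT libraries. Orc6 regions covered 0% and 41.5% with H2O2, against 0% in both NT libraries. The mean difference was 36.2 points (adjusted p = 0.0231), higher in 8 of 10 pairs and lower in 0. It was 29.4 points in batch 1 and 43.0 in batch 2. Without OGG1 siGl3 H2O2 replicate 2 the call was lost, at 32.6 points.

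PRDX5, found in mitochondria, peroxisomes and cytosol, was covered for 100% by OGG1 regions in 7 of 8 libraries, the exception being siOrc6 NT replicate 2 named above. Orc6 regions covered 100% and 71.5% with H2O2, against 54.3% and 30.9% without. Its mean difference of 14.0 points did not pass (adjusted p = 0.206). PRDX6, which uses glutathione and also acts on phospholipid peroxides, was covered by OGG1 regions for 80.8% and 42.6% in siOrc6 H2O2 libraries against 21.7% and 55.2% in siOrc6 NT libraries, and 66.6% and 50.4% in siGl3 H2O2 libraries against 25.5% and 14.8% in siGl3 NT libraries. Orc6 regions covered 44.0% and 78.5% with H2O2, against 28.8% and 42.0% without. SMARCA1 regions covered 32.9% and 15.3% in siOrc6 H2O2 libraries against 24.2% and 12.4% in siOrc6 NT libraries, and 13.3% and 11.7% in siGl3 H2O2 libraries against 0% and 16.1% in siGl3 NT libraries.

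The mean difference at PRDX6 was 19.5 points (adjusted p = 0.0352), higher in 8 of 10 pairs, with 27.5 points in batch 1 and 11.6 in batch 2. The call was lost under 15 of its 26 alternatives, against 3 to 5 of 26 for the other 4 genes. With the batch as a block its adjusted p was 0.0717, within a range of 0.0263 to 1 over its 26 alternatives. Leaving out any of 9 of the 20 libraries lost the call, with differences of 15.7 to 18.5 points. These were, with H2O2, SMARCA1 siOrc6 replicate 1, OGG1 siOrc6 replicate 1, OGG1 siGl3 replicate 1 and Orc6 replicate 2, and without H2O2, SMARCA1 siOrc6 replicate 2, SMARCA1 siGl3 replicate 1, OGG1 siOrc6 replicate 1, OGG1 siGl3 replicate 2 and Orc6 replicate 1.

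**Figure D3:**
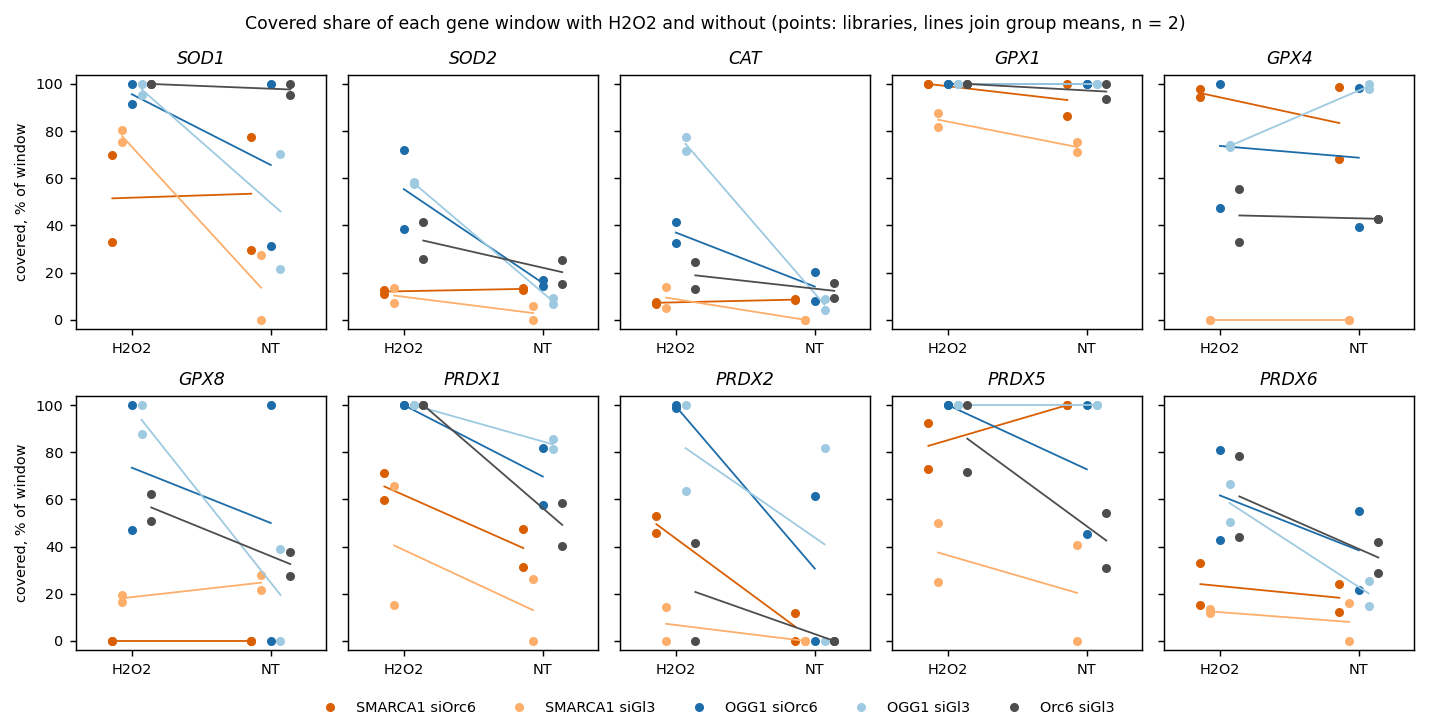
Covered percent of the gene window (vertical axis, 0 to 100%) with H2O2 (left) and without (NT, right) for each enzyme gene; points are libraries, lines join the means of the 2 libraries of a group, and colours mark the 5 antibody and siRNA strata. The group means of PRDX1, PRDX2 and PRDX6 were higher with H2O2 in every stratum. At CAT and SOD2 the group means lay furthest apart in the OGG1 strata.

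By occupancy alone, no enzyme gene passed in either antibody, but few of them could be tested. In SMARCA1 libraries that was so for 3 of the 10, GPX4, GPX8 and PRDX2. None of the others, CAT included, could have reached the threshold. In SMARCA1 libraries H2O2 against NT gave 4 of 4 against 2 of 4 occupied at CAT and 3 of 4 against 1 of 4 at PRDX2, and 2 of 4 against 2 of 4 at both GPX4 and GPX8. Fisher's exact test, adjusted over the 2063 genes occupied in exactly 4 of the 8 libraries, called 0 genes anywhere (0%), with 1006 at an unadjusted p below 0.05. None of the enzyme genes was occupied in every H2O2 and no NT library of SMARCA1, as 5.02% of all genes were, or the reverse, as 0.02% were. In OGG1 libraries the same test called 1565 of 1767 genes higher with H2O2 (88.6%), but none of the 10 enzyme genes could be among them, since each was occupied in at least 6 of the 8 libraries. That count of all genes was 0 without any 1 of the 4 OGG1 H2O2 libraries, and 2699 without OGG1 siOrc6 NT replicate 2. The genes tested then numbered 3692 to 3978 without an H2O2 library and 3577 without that NT library. Genes at the smallest p share the same adjusted p and pass or fail together. The 0 thus does not show that the calls rest on any 1 library.

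The second question was whether depletion of Orc6 moved SMARCA1 or OGG1 at these genes. The depletion itself cannot be checked here, since Orc6 regions were available from siGl3 cells alone. For SMARCA1, GPX4 and GPX8 stood at opposite ends. SMARCA1 regions covered GPX4 for 97.8% and 94.4% in siOrc6 H2O2 libraries and 98.5% and 68.3% in siOrc6 NT libraries, against 0% in all 4 siGl3 libraries. The mean was 89.8% ± 14.4 in siOrc6 libraries and 0% in siGl3 libraries (SD, n = 4 each). At GPX8 SMARCA1 regions covered 0% in all 4 siOrc6 libraries, against 19.5% and 16.7% in siGl3 H2O2 libraries and 21.5% and 27.9% in siGl3 NT libraries. The mean was 0% in siOrc6 libraries and 21.4% ± 4.79 in siGl3 libraries (SD, n = 4 each).

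The groups did not overlap at either gene, in either batch. In batch 1 the siOrc6 minus siGl3 difference of SMARCA1 was 98.2 points at GPX4 and -20.5 at GPX8, and in batch 2 it was 81.4 and -22.3 points. Of all protein-coding genes, 452 (2.26%) were occupied by SMARCA1 in every siOrc6 and no siGl3 library, as GPX4 was, and 15 (0.0751%) in no siOrc6 and every siGl3 library, as GPX8 was. Fisher's exact test gave p = 0.0286 at both, the smallest this design allows, and an adjusted p of 0.126. The test called 0 of 2063 genes (0%), with 467 at an unadjusted p below 0.05. All 4 SMARCA1 siOrc6 lists are named as resubmitted and no SMARCA1 siGl3 list is, so that effects of the siRNA and of the resubmission cannot be told apart. The SMARCA1 siOrc6 lists covered 71.8 to 158 Mb with median region widths of 1883 to 6566 bp, and the siGl3 lists 31.8 to 100.4 Mb with median widths of 1270 to 3789.5 bp. With every list cut to its 6992 strongest regions, SMARCA1 occupied GPX4 in 3 of 4 siOrc6 and 0 of 4 siGl3 libraries, and GPX8 in 0 of 4 siOrc6 and 2 of 4 siGl3 libraries.

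The regions sat over the starts shown above. At GPX4, on chr19, the gene spans 1103994 to 1106779 (hg38) and the 4 SMARCA1 siOrc6 regions began between 1100963 and 1102749 and reached into the gene body. At GPX8, on chr5, the gene spans 55160171 to 55167297 and the 4 SMARCA1 siGl3 regions began between 55158932 and 55159628. All 4 overlapped the promoter of GPX8, and all 4 SMARCA1 siOrc6 regions overlapped that of GPX4.

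**Figure D4:**
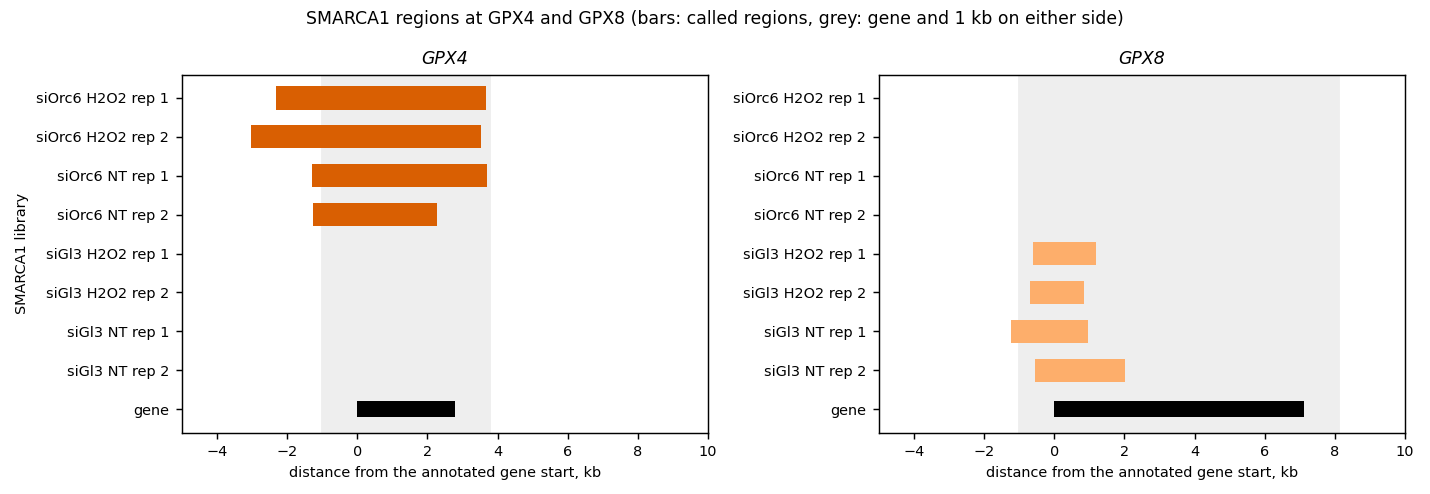
Called SMARCA1 regions (bars) at GPX4 and GPX8 in the 8 SMARCA1 libraries (rows, siOrc6 above siGl3), by distance in kb from the annotated start of the gene; the black bar is the gene and grey marks the gene and 1 kb on either side. GPX4 had a region in the 4 siOrc6 libraries and in none of the siGl3 libraries, and GPX8 the opposite.

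OGG1 regions were found at both genes with either siRNA. OGG1 was present at GPX4 in 4 of 4 siOrc6 and 4 of 4 siGl3 libraries, with a mean covered percent of 71.2% ± 32.4 in siOrc6 and 86.4% ± 14.6 in siGl3 libraries (SD, n = 4 each). At GPX8 it was present in 3 of 4 of either kind. The siOrc6 minus siGl3 difference of SMARCA1 exceeded that of OGG1 by 104.9 points at GPX4 (exact permutation within strata, p = 0.0154, adjusted p = 0.185) and by 76.1 points at PRDX5 (p = 0.0278, adjusted p = 0.187). Neither passed, and the test called 0 of 17906 genes (0%), with 3396 at an unadjusted p below 0.05. At PRDX5 SMARCA1 regions covered 72.9% and 92.5% in siOrc6 H2O2 libraries and 100% in both siOrc6 NT libraries, against 49.8% and 25.1% in siGl3 H2O2 libraries and 0% and 40.7% in siGl3 NT libraries. All siOrc6 libraries lay above all siGl3 libraries there, as at 17.8% of all genes, and the resubmission of the siOrc6 lists applies to PRDX5 as well. With every list cut to its 6992 strongest regions, SMARCA1 occupied PRDX5 in 4 of 4 siOrc6 and 2 of 4 siGl3 libraries.

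Over both antibodies, siOrc6 against siGl3 gave 0 calls among the enzyme genes and among all 17906 genes (0%) in the exact permutation test, with 777 genes at an unadjusted p below 0.05 and the smallest adjusted p at 0.791. The differences ran between -8.16 points at GPX8 and 37.3 points at GPX4. OGG1 occupancy gave 0 calls of 1767 genes (0%) by Fisher's exact test, 0 of them at an unadjusted p below 0.05. None of the enzyme genes was among those 1767, so this test gave no result for them. The H2O2 difference of siOrc6 minus that of siGl3 likewise gave 0 calls (0%) by the permutation test, with 102 genes at an unadjusted p below 0.05. At the enzyme genes it ran between -44.0 points at SOD1 and 32.1 at PRDX2.

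Genes of the wider pathway passed the H2O2 test about as often as all genes. Of 31 genes of the thioredoxin system, the glutathione system, the other family members and the NRF2 axis, 29 were tested and 15 passed as higher in covered percent (51.7%), with 0 lower. Among 24 tested genes of the hepatocyte, T cell and neuronal lists, 11 passed as higher (45.8%), again near the 48.6% of all genes. These lists were chosen by function, with earlier results of these data known.

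In the NRF2 axis 6 of 8 genes passed. NFE2L2, which encodes NRF2 itself, averaged 59.2% covered with H2O2 and 22.4% without (adjusted p = 0.00937). NQO1, a quinone reductase, averaged 56.9% with H2O2 and 30.8% without (adjusted p = 0.0128). KEAP1, the inhibitor of NRF2, averaged 26.5% with H2O2 and 10.6% without (adjusted p = 0.0295). SESN2, a sestrin induced by stress, averaged 44.6% with H2O2 and 16.8% without (adjusted p = 0.0179). HMOX1, the inducible heme oxygenase, averaged 87.3% with H2O2 and 70.9% without (adjusted p = 0.0481).

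In the thioredoxin system 2 of 6 genes passed. TXNIP, which binds and inhibits thioredoxin, averaged 53.1% covered with H2O2 and 11.6% without, a difference of 41.5 points (adjusted p = 0.0128). TXNRD2, the mitochondrial thioredoxin reductase, averaged 59.1% with H2O2 and 41.7% without (adjusted p = 0.0137).

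In the glutathione system 4 of 8 passed, among them both subunits of the first enzyme of glutathione synthesis. The catalytic subunit GCLC averaged 59.3% with H2O2 and 26.5% without, and the modifier subunit GCLM 40.7% with H2O2 and 13.3% without. GSS, the second enzyme of that synthesis, averaged 42.7% with H2O2 and 13.2% without. Of the remaining family members, 7 of 9 were tested and 3 passed. PRDX3, the mitochondrial peroxiredoxin, averaged 56.5% with H2O2 and 34.5% without. GPX3, the plasma enzyme, averaged 35.6% with H2O2 and 10% without. PRDX4, of the endoplasmic reticulum, averaged 4.66% with H2O2 and 0% without. GPX6, GPX7 and PRDX4 were the 3 of these genes that OGG1 occupied in every H2O2 and no NT library, as it did 7.84% of all protein-coding genes.

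The authors' deposited table for SMARCA1 gives windows named up and ns for each treatment, with positions but no values. The samples behind them are not named in the sources used here. In the authors' deposited table for H2O2, up windows touched 8 of the 10 enzyme genes (all but GPX8 and PRDX5) and 50.1% of all genes. In the authors' deposited table for NT, up windows touched 7 of the 10 (all but GPX8, PRDX2 and PRDX6) and 34.0% of all genes. Windows named ns in the authors' deposited table touched 5 of the 10 with H2O2 (SOD1, SOD2, GPX8, PRDX1 and PRDX5), against 44.5% of all genes. Without H2O2 they touched 2 of the 10 (GPX8 and PRDX6), against 10.5% of all genes. GPX8 was thus the 1 enzyme gene with no window named up in either treatment.

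For 9 of the enzyme genes, the gene on another chromosome with the most similar covered percent over the 20 libraries is given, as a description with no test, since all genes share the list lengths. For CAT it was ARHGAP10 (Pearson r = 0.99), for SOD2 MARCHF5 (0.98), for PRDX5 SPEGNB (0.98) and for PRDX6 WEE1 (0.97). It was PLXNB2 for GPX4, FHIP2A for GPX8 and LGI3 for PRDX2, each at 0.95, RDH11 for SOD1 (0.93) and NEK8 for PRDX1 (0.91). Among the enzyme genes themselves the lowest correlation was that of GPX4 with GPX8 (r = -0.16).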

How the data were processed

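CUT&RUN libraries were sequenced from both ends at 150 bases, per the labels' protocols. SEACR 1.1, Bowtie2, bedtools, SAMtools, deepTools, DESeq2 and DiffBind are named in the submitters' processing notes, with hg38 and no roles. Each list holds the regions of 1 library with the authors' deposited total and maximum signal. Its control and normalization are not stated in the sources used here. The authors' deposited window files hold positions only, and their one numeric column is 0 throughout. A further list of the whole series was not used here.

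Gene positions came from RefSeq (GRCh38.p14), whose gene table gives no strand, exon or intron. A gene's own start was known only where the promoter table lists one. Occupancy was tested by Fisher's exact test on 4 against 4 libraries. Benjamini-Hochberg adjustment covered the genes with 4 occupied libraries among the 8, since by that exact test no other total reaches p = 0.0286. Covered percent was tested for every gene covered in at least 1 library, by exact two-sided permutation of the label within strata, because 2 libraries against 2 cannot pass alone. The threshold was an adjusted p of 0.05. Percentiles were given with no test.

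The replicate numbers pair the samples, because the labels' batch field holds the same number, and each test was repeated with the batch as a block. In 5 of 10 groups the list of replicate 1 was the longer. Of 190 pairs of lists, 0 were identical. Both the 10 genes and the other lists (65 genes) were chosen with earlier results of these data known. The rule for named genes was all 10 enzyme genes, for each the gene of highest correlation on another chromosome, and list members that passed a test, at most 5 per list and comparison. A few genes that this rule names are not reported here. Alternatives changed the window, the overlap, the list length, the widest region, the batch block, the centring of libraries and the libraries used. The tests were checked on simulated data. Python 3.11.15, numpy 2.4.6, scipy 1.17.1 and pandas 2.3.3 were used.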

Additional observations from a re-analysis of the deposited data

How the results depend on the processing

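The count of enzyme genes called higher in covered percent with H2O2, 5 in the analysis as reported, was 1 with windows at the gene ends (PRDX1), 0 with lists of equal length, 1 with regions of at most 10 kb (CAT), 3 with the batch as a replicate block and 0 with each library's mean subtracted. The cause of each was not tested. It was 4 with no sequence added to the gene and 4 to 7 with 1 library left out. CAT came to -0.0228 points with lists of equal length, and PRDX1 to -4.62 points with regions of at most 10 kb. Over all genes the calls with H2O2 were 8715 higher and 2 lower as reported, 1789 and 0 at gene ends, 0 and 0 with lists of equal length, 2535 and 14 with regions of at most 10 kb, 4465 and 0 with the replicate block, and 717 and 3588 with library means subtracted. The counts of enzyme genes called in the other 7 comparisons were 0 under every alternative run, those with 1 library left out included (0 to 0). In the analysis as reported, no enzyme gene could be tested in the OGG1 comparisons of occupancy, so the 0 there was fixed. In those of SMARCA1 only GPX4, GPX8 and PRDX2 could be tested. The replicate block changed no other call at these genes. In the 4 comparisons of occupancy it could not have called any gene, since a sign test over 4 same-batch pairs cannot reach the threshold. In Fisher's tests of occupancy, all genes at an unadjusted p below 0.05 share the same adjusted p. They are therefore called together or not at all, and a change in such a count is not evidence gained or lost gene by gene. Over all genes, SMARCA1 siOrc6 against siGl3 gave 962 higher and 67 lower calls of 1610 with lists of equal length, against 0 as reported. OGG1 H2O2 against NT gave 0 calls with lists of equal length, and 1549 higher and 100 lower with regions of at most 10 kb, against 1565 higher. Its 0 calls with the replicate block were fixed by that sign test and say nothing about the batch. With 1 library left out it gave 0 calls without any of the 4 H2O2 libraries and 1628 to 2699 higher without an NT library. Read depth is unknown, so a gene with no region may lie below what the caller could detect, and counts of regions limit every comparison.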
